A study of Mus musculus with 18 samples.

Results

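The 10 genes of fatty acid binding and the lipid droplet studied here were followed in the small intestine of 18 mice. They were Fabp1, Fabp2, Plin2, Plin3, Cideb, Slc27a4, Slc27a2, Pnpla2, Mgll and Abhd6, taken by their symbols from a table of 21928 symbols, all 10 were found, and all 10 passed the filter of 1 FPKM in at least 3 libraries that left 11767 genes for testing. The groups, of 3 C57BL/6 wild type mice each, were male mice given simvastatin after total abdominal irradiation (TAI), male mice after TAI, male control mice, female mice on a high-fat diet (HFD) after TAI, female mice after TAI and female control mice. TAI was 12 Gy and tissue was taken at day 21, and the mice of the control groups were not irradiated. No group received simvastatin or HFD without TAI, and each treatment was sequenced in 1 sex, so that the treatment cannot be told apart from its combination with TAI and from the sex. The age of the mice and the segment of the small intestine are not given in the sources used here, and nothing in the labels says whether the 3 libraries of a group came from separate cages or litters, so the p values measure the spread between these libraries. Levels are FPKM, fragments of a transcript divided by its length and by the mapped fragments of the library, summed over the transcripts of a gene. The summed FPKM of a library lay between 390703 and 417937, the number of genes at 1 FPKM or more lay between 10540 and 11752, and FPKM hold no read totals, so no counting interval can be given.

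Absorbed fatty acids enter the enterocyte with the help of transport proteins, are carried through the cytosol by fatty acid binding proteins and are joined to coenzyme A at the endoplasmic reticulum. They are then esterified to triacylglycerol, which either leaves the cell in chylomicrons or is kept for a time in lipid droplets coated by perilipins, and lipases release it again. The 10 genes lie on 7 chromosomes, and the 5 that differed in mice fed HFD are Fabp1 (ENSMUSG00000054422, chr6:71199827-71205023), Fabp2 (ENSMUSG00000023057, chr3:122895072-122899506), Plin2 (ENSMUSG00000028494, chr4:86648386-86670060), Slc27a2 (ENSMUSG00000027359, chr2:126552407-126588243) and Abhd6 (ENSMUSG00000025277, chr14:8002902-8056763), by GENCODE M21 on GRCm38. Several of the 10 genes are known targets of PPAR alpha, a nuclear receptor that fatty acids activate and that binds DNA together with RXR.

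The element that PPAR and RXR recognise, and that HNF4 also binds, is a direct repeat of the letters AGGTCA with 1 base between the copies, AGGTCANAGGTCA. It was searched on both strands of the promoter windows of the RefSeq table (GRCm38.p6), which hold 250 bases before and 50 bases after each start site, and windows were found for all 10 genes. A match with at most 2 mismatches in the 12 letters of the repeat was present in 2 of the 10 genes, Fabp1 and Plin2, and in 4.4% of all 27025 genes of the table, which have 32851 windows of the same length. Both matches lay on the strand opposite to the gene. The match of Fabp1 had 1 mismatch and spanned positions -67 to -55 from the start site, and that of Plin2 had 2 mismatches and spanned positions -225 to -213. With 3 mismatches allowed, 7 of the 10 genes had a match, but so did 27.3% of all genes of the table. A match is a description of the letters and no evidence that a factor was bound. The stretches with both matches are given here with that of Fabp2, the most abundant of the 10 genes, in which no such match was found. Each reads 5′ to 3′ along the gene's own strand, and capitals mark the match.
Fabp1, chr6:71199719-71199848, plus strand: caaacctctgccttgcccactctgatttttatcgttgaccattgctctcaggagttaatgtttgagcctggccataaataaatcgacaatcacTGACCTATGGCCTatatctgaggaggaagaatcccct
Plin2, chr4:86670180-86670309, minus strand: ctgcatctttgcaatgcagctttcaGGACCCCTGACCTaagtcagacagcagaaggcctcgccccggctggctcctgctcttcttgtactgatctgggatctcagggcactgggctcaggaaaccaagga
Fabp2, chr3:122894912-122895041, plus strand: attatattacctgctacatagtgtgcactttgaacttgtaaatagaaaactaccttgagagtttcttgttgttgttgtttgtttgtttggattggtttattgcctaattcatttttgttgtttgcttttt

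Fabp2 and Fabp1, the intestinal and the liver type of fatty acid binding protein, were the most abundant of the 10 genes by a wide margin. Fabp2 averaged 4610 FPKM over the 18 libraries and Fabp1 averaged 2156 FPKM, ranks 10 and 20 among the 11767 genes tested. Fabp2 made up 0.751% to 1.98% of all FPKM of a library and Fabp1 made up 0.324% to 0.951%. Slc27a4, a fatty acid transport protein with acyl-CoA ligase activity, averaged 237 FPKM. Plin3, a perilipin that moves between the cytosol and the droplet, averaged 145 FPKM, and Cideb, a droplet protein that takes part in the lipidation of lipoproteins, averaged 129 FPKM. The group ranges of Plin3 and Cideb overlapped in 4 of the 6 groups, and the order of these neighbours was not the same in every group. Slc27a2, a very long chain acyl-CoA synthetase, averaged 46.3 FPKM, Abhd6, a monoacylglycerol lipase, 41.5 FPKM, Pnpla2, the triacylglycerol lipase also called ATGL, 36.1 FPKM, and Plin2, the perilipin that is bound to droplets nearly all of the time, 30.6 FPKM. The order of these 4 genes changed between the groups. Mgll, the monoacylglycerol lipase of the cytosol, was far below the rest at 2.87 FPKM and ranked 8852. The intestinal origin of the tissue was plain, since all 16 enterocyte markers were measured at summed levels of 10830 to 14820 FPKM over the 18 libraries. The 7 exocrine pancreas markers summed to 1.56 to 2.60 FPKM, and Cpa1 and Amy2a5 among them were listed at 0 in every library.

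**Figure D1:**
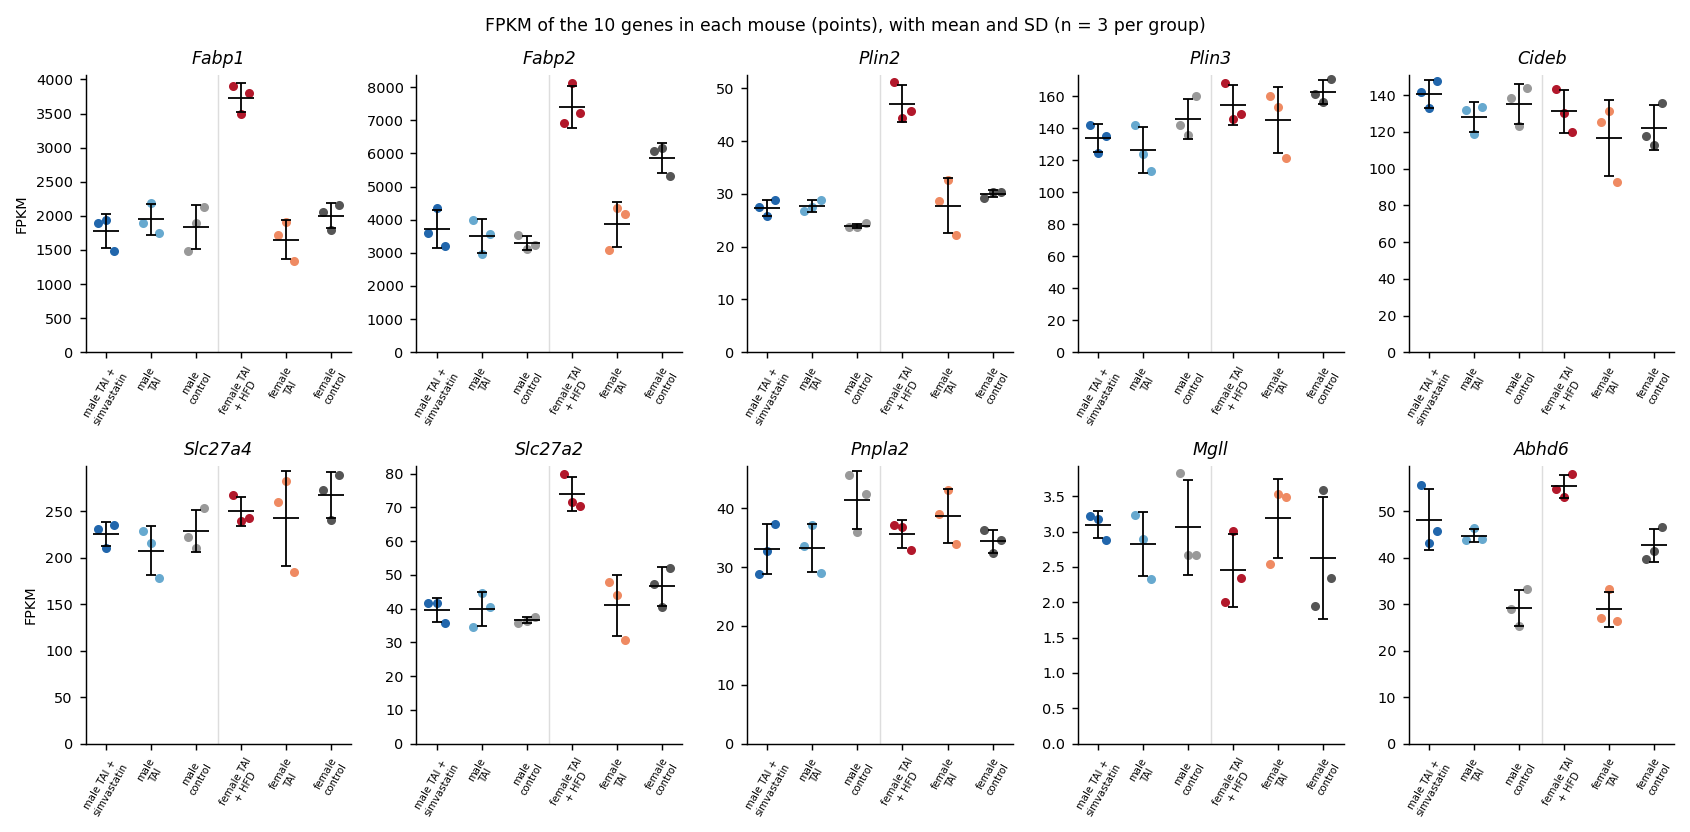
FPKM of the 10 genes (vertical axes, linear, starting at 0) in each of the 18 mice, shown as points, with the mean and SD of the 3 mice of a group as bars. The 3 mice fed HFD after TAI are the highest of all 18 for Fabp1, between 3489 and 3897 FPKM, and for Fabp2, Plin2 and Slc27a2, whereas Plin3, Cideb, Slc27a4, Pnpla2 and Mgll overlap between mice fed HFD after TAI and female mice after TAI.

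Of the 10 genes, 5 were higher in female mice fed HFD after TAI than in female mice after TAI alone, and none was lower. The 5 were both fatty acid binding proteins, Plin2, Slc27a2 and Abhd6. Over all genes tested, 1.74% were higher and 1.42% were lower in this comparison (limma, Benjamini-Hochberg adjusted p under 0.05). The median log2 fold change of the 10 genes was 0.47, beside -0.01 for all genes.

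Fabp1 had 3897, 3489 and 3798 FPKM in mice fed HFD after TAI, against 1715, 1905 and 1334 FPKM in female mice after TAI. The lowest of the mice fed HFD was well above the highest of the mice after TAI alone. The ratio of the means was 2.26, and the log2 fold change was 1.19 ± 0.16 (SE, limma adjusted p = 0.000776). Fabp2 had 6908, 8126 and 7208 FPKM in mice fed HFD after TAI, against 3071, 4340 and 4159 FPKM in mice after TAI. The ranges were again apart, and the log2 fold change was 0.96 ± 0.16 (SE, limma adjusted p = 0.0032). Together the 10 genes summed to 11610 to 12340 FPKM in mice fed HFD after TAI, against 5477 to 6969 FPKM in female mice after TAI, and this sum is carried almost wholly by the 2 binding proteins.

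Of the droplet coat, Plin2 had 51.2, 44.4 and 45.7 FPKM in mice fed HFD after TAI, against 28.6, 32.6 and 22.2 FPKM in female mice after TAI. The groups did not overlap, and the log2 fold change was 0.76 ± 0.10 (SE, limma adjusted p = 0.000776). Plin3, the other perilipin, had 168.5, 145.8 and 149.0 FPKM in mice fed HFD after TAI, against 160.0, 153.3 and 121.3 FPKM in mice after TAI. These ranges overlapped, and the log2 fold change of Plin3 was 0.10 with a 95% interval of -0.13 to 0.33. Cideb averaged 131 ± 11.8 FPKM in mice fed HFD after TAI and 117 ± 20.6 FPKM in mice after TAI (SD, n = 3 each), with an interval of the log2 fold change of -0.07 to 0.43. Of the exonic bases of Cideb, 76.3% are also exonic in Nop9 on the other strand, and the strand of the reads is not stated, so reads of both genes cannot be told apart there. Nop9 itself was listed at 2.05 to 4.49 FPKM.

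The acyl-CoA synthetases of the SLC27 family also differed from each other. Slc27a2 had 79.9, 71.7 and 70.5 FPKM in mice fed HFD after TAI, against 47.9, 44.1 and 30.8 FPKM in female mice after TAI, with a log2 fold change of 0.86 ± 0.14 (SE, limma adjusted p = 0.00264). Slc27a4 averaged 250 ± 15.9 FPKM in mice fed HFD after TAI and 242 ± 50.9 FPKM in mice after TAI (SD, n = 3 each), a log2 fold change of 0.06 with a 95% interval of -0.23 to 0.36.

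The 3 lipases did not move together. Abhd6 had 54.8, 53.1 and 58.1 FPKM in mice fed HFD after TAI, against 27.0, 33.2 and 26.4 FPKM in female mice after TAI, with a log2 fold change of 0.92 ± 0.11 (SE, limma adjusted p = 0.000377). Pnpla2 averaged 35.6 ± 2.42 FPKM in mice fed HFD after TAI and 38.7 ± 4.62 FPKM in mice after TAI (SD, n = 3 each), with a 95% interval of the log2 fold change of -0.36 to 0.14. Mgll averaged 2.45 ± 0.51 FPKM and 3.19 ± 0.56 FPKM in the same order, with an interval of -0.64 to 0.08.

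The count of 5 was unchanged when any single library was left out, including female TAI replicate 3, the library that stood farthest from the others on the first principal component. In a fit of the 6 libraries of these 2 groups alone, Abhd6 was past the threshold and the others were not (limma adjusted p = 0.0594 for Fabp1, 0.137 for Fabp2, 0.111 for Plin2 and 0.111 for Slc27a2), with 47 genes called in all in place of 372. Without the filter on low values the call of Fabp2 was lost (limma adjusted p = 0.0575) and 4 remained.

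**Figure D2:**
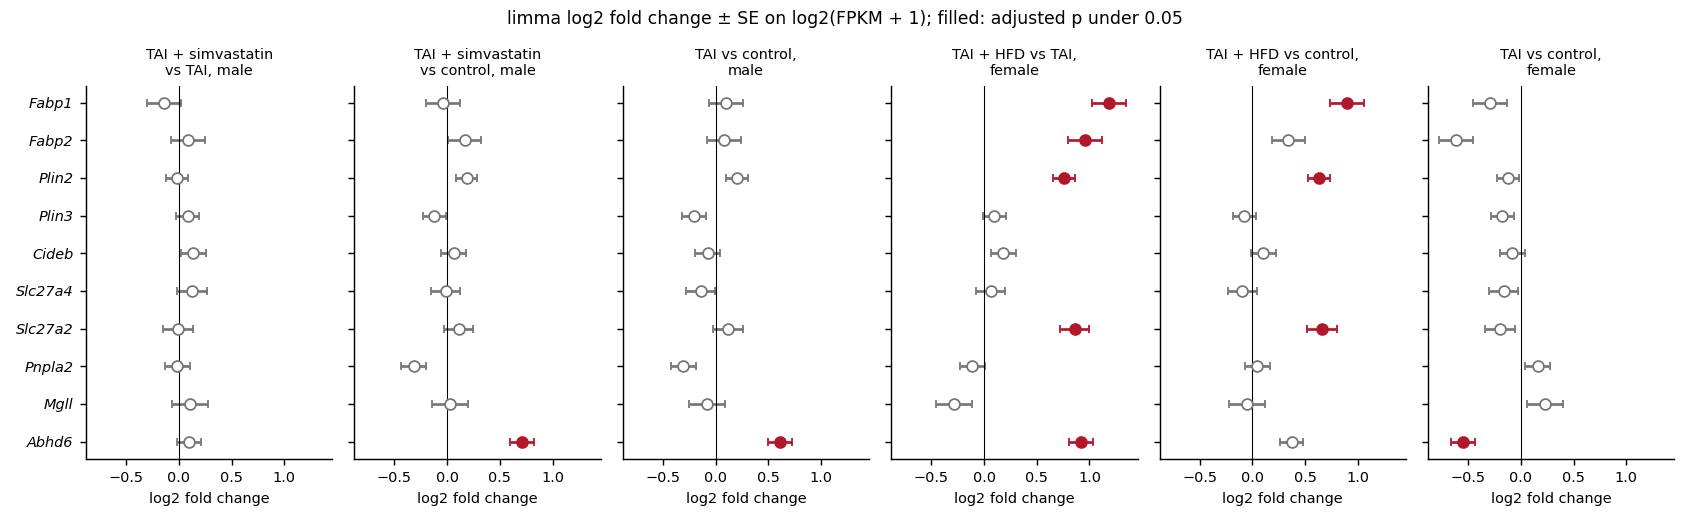
Log2 fold change on log2(FPKM + 1) with its SE (horizontal axes) for the 10 genes in 6 comparisons, with filled points where the limma adjusted p was under 0.05. 5 genes are filled to the right in mice fed HFD against mice after TAI, 3 of them also against female control mice, none in simvastatin against TAI, and Abhd6 lies right in males and left in females after TAI.

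Set against female control mice, which were neither irradiated nor fed HFD, 3 of the 10 genes were higher in mice fed HFD after TAI and none was lower, beside 2.91% of all genes higher and 1.67% lower. Fabp1, at 3489 to 3897 FPKM in mice fed HFD after TAI, had 2053, 1798 and 2158 FPKM in female control mice, with a log2 fold change of 0.90 ± 0.16 (SE, limma adjusted p = 0.00501). Plin2, at 44.4 to 51.2 FPKM in mice fed HFD after TAI, had 29.2, 30.4 and 30.4 FPKM in female control mice, and its log2 fold change was 0.63 ± 0.10 (SE, limma adjusted p = 0.00249). Slc27a2, at 70.5 to 79.9 FPKM in mice fed HFD after TAI, had 47.4, 40.5 and 51.9 FPKM in female control mice, with a log2 fold change of 0.66 ± 0.14 (SE, limma adjusted p = 0.0143).

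Fabp2 and Abhd6 were nearer to the level of the control mice. Fabp2 had 6908 to 8126 FPKM in mice fed HFD after TAI, above the 6071, 6160 and 5328 FPKM of female control mice, and its log2 fold change of 0.34 did not pass (limma adjusted p = 0.191). Abhd6 had 53.1 to 58.1 FPKM in mice fed HFD after TAI, above the 39.8, 41.5 and 46.6 FPKM of female control mice, and its log2 fold change of 0.37 did not pass either (limma adjusted p = 0.0731). The other 5 genes had log2 fold changes between -0.10 and 0.10. Of all 11767 genes tested, 3432 were higher and 1268 lower without overlap between mice fed HFD after TAI and female control mice. The call of Slc27a2 was lost without replicate 1 or 2 of the mice fed HFD after TAI or without female control replicate 2 (limma adjusted p = 0.0706, 0.0508 and 0.0528), and with median ratio scaling between libraries Fabp1 alone stayed past the threshold.

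Ratios between 2 genes of a library do not depend on the scaling between libraries. Plin2 stood at 0.304, 0.305 and 0.307 times the level of Plin3 in mice fed HFD after TAI, against 0.179, 0.213 and 0.183 in female mice after TAI and 0.181, 0.195 and 0.178 in female control mice. Slc27a2 stood at 0.298, 0.300 and 0.290 times the level of Slc27a4 in mice fed HFD after TAI, against 0.184, 0.156 and 0.166 in mice after TAI and 0.174, 0.168 and 0.180 in female control mice. Both ratios were higher in each of the mice fed HFD than in any of the other 15 mice. The ratio of Fabp1 to Fabp2 overlapped, at 0.429 to 0.564 in mice fed HFD after TAI, 0.321 to 0.558 in female mice after TAI and 0.292 to 0.405 in female control mice, where it did not reach the range of the mice fed HFD.

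**Figure D3:**
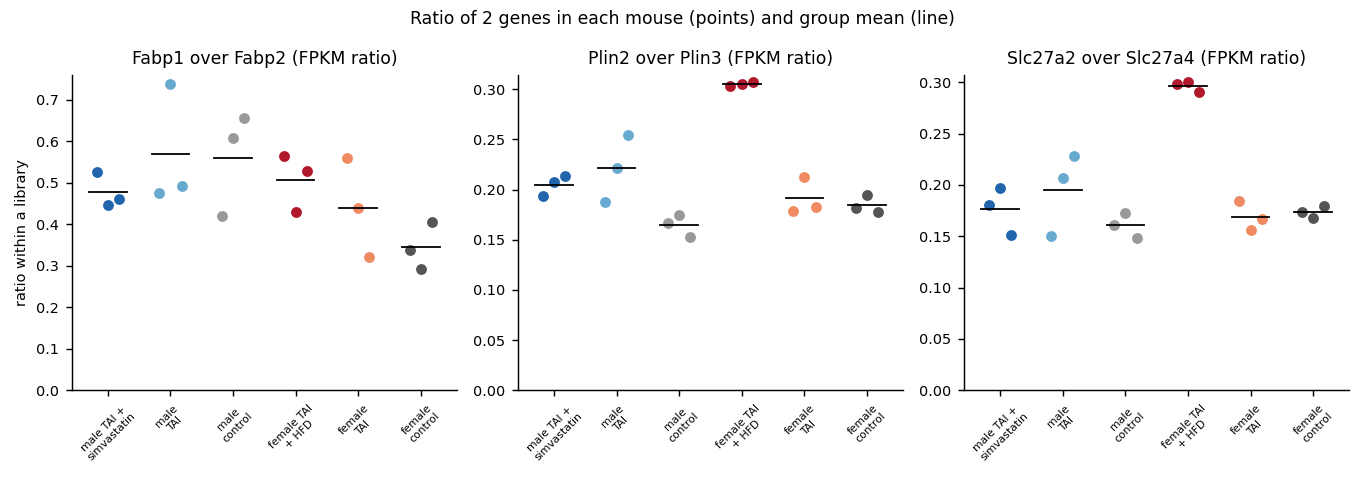
Ratio of the FPKM of 2 genes within a library (vertical axes, starting at 0) for the 18 mice as points, with the group mean as a line. Plin2 over Plin3 lies at 0.304 to 0.307 and Slc27a2 over Slc27a4 at 0.290 to 0.300 in mice fed HFD after TAI, above every other mouse, while Fabp1 over Fabp2 overlaps between groups.

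In whole tissue a change in the share of a cell type and a change in RNA per cell cannot be told apart. The 16 enterocyte markers summed to 11720 to 12270 FPKM in mice fed HFD after TAI, 10830 to 12470 FPKM in female mice after TAI and 12050 to 14820 FPKM in female control mice, and 1 of the 16, Alpi, was higher and 1, Anpep, was lower in mice fed HFD than in mice after TAI. Against female control mice, Alpi was higher and 5 of the 16 were lower in mice fed HFD after TAI (among them Dpp4, Anpep and Slc15a1). Of 8 adipocyte markers tested, 5 were lower in mice fed HFD than in mice after TAI (Cfd, Car3, Adrb3, Plin1 and Adipoq). Cidec of the same list was higher without passing, at a log2 fold change of 0.59 (limma adjusted p = 0.193). None of the 8 passed against female control mice. The adipocyte markers summed to 54.7 to 87.2 FPKM in mice fed HFD, 90.3 to 242 FPKM in mice after TAI and 64.3 to 184 FPKM in female control mice. The markers of the proximal intestine summed to 4228 to 4811 FPKM in mice fed HFD after TAI, against 1924 to 3013 FPKM in mice after TAI, although the call was made for 2 of 7 tested, Rbp2 and Bche, and most of that sum is Rbp2. The ileum markers, of which 3 of 6 were tested, overlapped in their sums, at 233 to 284 FPKM and 220 to 323 FPKM in the same order, and 1 of the 3, Slc51a, a subunit of the basolateral bile acid transporter, was lower in mice fed HFD (log2 fold change -0.47, limma adjusted p = 0.0402). The 8 smooth muscle markers summed to 254 to 288 FPKM in mice fed HFD after TAI, 278 to 504 FPKM in female mice after TAI and 353 to 423 FPKM in female control mice, and 1 of the 8, Mylk, was lower in mice fed HFD than in either group. The 9 markers of Paneth cells summed to 805 to 2127 FPKM in mice fed HFD after TAI, 221 to 4978 FPKM in mice after TAI and 101 to 228 FPKM in female control mice. Of these, 4 were higher in mice fed HFD than in female control mice (Defa17, Defa30, Lyz1 and Defa24) and none differed from mice after TAI by the test. The enteroendocrine markers summed to 123 to 149 FPKM in mice fed HFD after TAI, 71.9 to 108 FPKM in mice after TAI and 58.1 to 64.9 FPKM in female control mice. Of 9 tested, 1 was higher in mice fed HFD than in mice after TAI (Sct), and 5 were higher than in female control mice (Gcg, Sct, Chgb, Gip and Chga), as were Ccnb1 of 12 cell cycle genes and Lyve1 of 5 endothelial markers. Transcripts of the mitochondrial genome took 14.3% to 17.1% of FPKM in mice fed HFD after TAI, against 16.8% to 21.6% in female mice after TAI and 16.2% to 21.1% in female control mice. The part of these shares in the differences above was not tested.

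The wider pathway was read from lists of related genes. Of 6 other binding proteins for fatty acids, acyl-CoA or retinol tested, 2 passed as higher in mice fed HFD after TAI than in mice after TAI. They were Rbp2, which carries retinol in enterocytes, with a log2 fold change of 0.97, and Dbi, the acyl-CoA binding protein, with 0.71. The other 4 did not pass. Among them, Fabp4 and Fabp5 had log2 fold changes of -1.77 and -0.43 (limma adjusted p = 0.0752 and 0.286). Fabp4 is also one of the adipocyte markers above. Acbd3 and Acbd5 had -0.11 and 0.36. Of 9 genes of fatty acid uptake and acyl-CoA ligation, 3 were higher, Scarb1 (1.61), Acsl3 (0.91) and Acsl5 (0.57). Scarb1, a receptor for lipoprotein cholesterol, had 24.6, 4.46 and 6.28 FPKM in mice fed HFD after TAI, against 2.62, 1.79 and 2.54 FPKM in mice after TAI, so that 1 mouse was far above the others. Acsl3 also coats droplets and is counted again with them.

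None of 14 genes of triacylglycerol synthesis passed the test in either direction, although 3 had an unadjusted limma p under 0.05, and those with the smallest p were Dgat2, at a log2 fold change of 0.68 (limma adjusted p = 0.169), and Agpat2, at 0.22 (limma adjusted p = 0.268). Of 18 genes of droplet coat and assembly, Acsl3, Hsd17b11 (0.77) and Hsd17b13 (1.04), all 3 found on droplets, were higher, and the adipocyte perilipins Plin1 and Plin4 were lower, at log2 fold changes of -1.65 and -0.92. Plin1 had 0.178, 0.189 and 0.446 FPKM in mice fed HFD after TAI, against 3.36, 4.72 and 1.49 FPKM in mice after TAI. It is also one of the adipocyte markers above.

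Of 20 genes of lipolysis, the lysosomal acid lipase Lipa (0.82) and the carboxylesterase Ces2c (0.99) were higher and Lpl, the lipase of the capillary wall, was lower (-1.87). Of 13 genes of chylomicron assembly, Apoc2 (2.13) and Apoa4 (1.18) were higher. Apoa4 had 9495, 8378 and 7778 FPKM in mice fed HFD after TAI, against 4900, 4367 and 2502 FPKM in mice after TAI.

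Among the pathway lists, the largest share of called genes was in that of PPAR alpha targets outside the 10 genes, of which 15 of 23 were higher and none was lower. The median log2 fold change of this list was 0.63. Among those with the smallest p were Cyp4a10, a fatty acid hydroxylase (1.93), Acadvl (0.65), Acadl (1.46) and Hadha (0.51) of mitochondrial beta-oxidation, and Acot1, an acyl-CoA thioesterase (1.51). Acadl had 123, 136 and 121 FPKM in mice fed HFD after TAI, against 48.0, 52.8 and 37.0 FPKM in mice after TAI and 31.6, 49.2 and 32.8 FPKM in female control mice. Against female control mice, 13 of the 23 targets were higher in mice fed HFD after TAI and none was lower. Of the receptors themselves, chosen after their values were seen, Ppara averaged 20.1 FPKM in mice fed HFD after TAI and 12.96 FPKM in mice after TAI without passing (limma adjusted p = 0.0665), and Ppard was lower, at 24.0 FPKM and 36.1 FPKM in the same order (limma adjusted p = 0.0048). In female control mice, Ppara averaged 12.9 FPKM and Ppard 27.8 FPKM. Pparg averaged 6.42 FPKM in mice fed HFD after TAI, 7.64 FPKM in mice after TAI and 4.99 FPKM in female control mice. Hnf4a averaged 178, 184 and 171 FPKM in the same order.

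**Figure D4:**
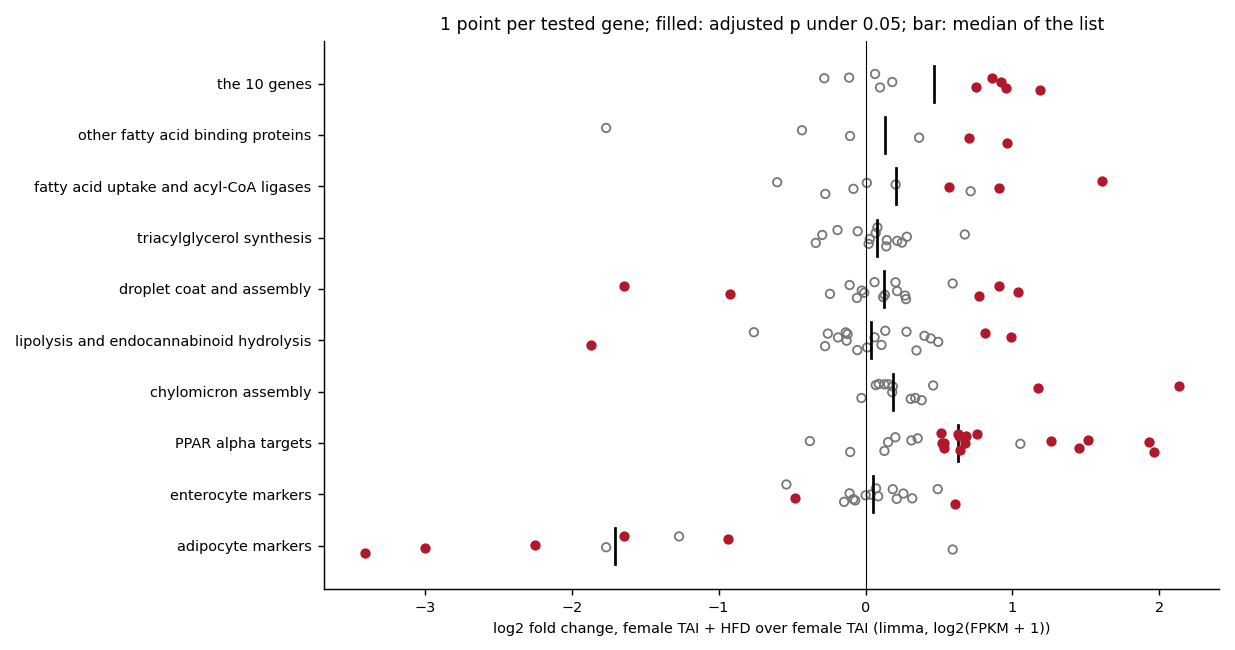
Log2 fold change of each tested gene (horizontal axis) in female mice fed HFD after TAI over female mice after TAI, by list, with filled points at a limma adjusted p under 0.05 and a bar at the median of each list. The 10 genes and the PPAR alpha targets have medians of 0.47 and 0.63, the triacylglycerol synthesis genes hold no filled point, and the filled adipocyte markers all lie to the left.

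Of the 10 genes, 1 was lower and none was higher in female mice after TAI than in female control mice, beside 0.34% of all genes lower and 0.416% higher. It was Abhd6, with 27.0, 33.2 and 26.4 FPKM after TAI, against 39.8, 41.5 and 46.6 FPKM in female control mice, and the log2 fold change was -0.55 ± 0.11 (SE, limma adjusted p = 0.044). This call was lost in 17 of 18 fits that left out 1 library, and in 8 other alternatives. Fabp2 had 3071, 4340 and 4159 FPKM in female mice after TAI, against 6071, 6160 and 5328 FPKM in female control mice. The groups did not overlap, but the log2 fold change of -0.62 ± 0.16 did not pass over all genes (SE, limma adjusted p = 0.0947). Of all 11767 genes tested, 1209 were higher and 487 lower without overlap in this comparison. The median log2 fold change of the 10 genes was -0.17, beside 0.12 for all genes.

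In male mice, Abhd6 was the single gene of the 10 that passed after TAI, and it was higher, beside 1.2% of all genes higher and 0.901% lower. It had 43.9, 46.3 and 43.9 FPKM in male mice after TAI, against 29.0, 25.3 and 33.2 FPKM in male control mice, with no overlap and a log2 fold change of 0.61 ± 0.11 (SE, limma adjusted p = 0.00888). Fabp1 averaged 1947 ± 228 FPKM after TAI and 1833 ± 326 FPKM in male control mice, and Fabp2 averaged 3510 ± 513 FPKM and 3301 ± 215 FPKM in the same order (SD, n = 3 each). Pnpla2 averaged 33.3 ± 4.09 FPKM after TAI and 41.4 ± 4.95 FPKM in male control mice (SD, n = 3 each; limma adjusted p = 0.274). In the other lists, Gpat4 of triacylglycerol synthesis (log2 fold change 0.39) and Pex11a, a peroxisomal PPAR alpha target (0.56), were higher after TAI, and the droplet protein Mettl7b (-0.66), the droplet phospholipid enzyme Pcyt1a (-0.45) and Vnn1, another PPAR alpha target (-0.91), were lower.

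None of the 10 genes passed the test in male mice given simvastatin, an inhibitor of HMG-CoA reductase, after TAI against male mice after TAI, where 0.0765% of all genes were higher and 0.62% lower. These were 9 and 73 genes. Quantile normalization gave 13 and 32, median ratio scaling gave 5 and 16, and the total of 82 fell to 11 without simvastatin replicate 3. None of the 10 reached even an unadjusted limma p under 0.05. The log2 fold changes lay between -0.14 for Fabp1 and 0.14 for Cideb, and the 95% intervals reached down to -0.48, for Fabp1, and up to 0.47, for Mgll. Fabp1 had 1899, 1940 and 1485 FPKM in mice given simvastatin after TAI, against 1900, 2194 and 1746 FPKM in male mice after TAI. Plin2 had 27.5, 25.8 and 28.8 FPKM in mice given simvastatin, against 26.7, 27.5 and 28.9 FPKM in male mice after TAI. Both pairs of ranges overlapped.

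Against male control mice, mice given simvastatin after TAI had 1 of the 10 genes higher, Abhd6, and none lower, beside 2.74% of all genes higher and 2.63% lower. Abhd6 had 55.6, 43.2 and 45.7 FPKM in mice given simvastatin after TAI, all above the 25.3 to 33.2 FPKM of male control mice, with a log2 fold change of 0.71 ± 0.11 (SE, limma adjusted p = 0.0015). The comparisons of male TAI and of simvastatin share the male control mice. In the other lists, Dgat2, the final enzyme of triacylglycerol synthesis, was higher in mice given simvastatin after TAI than in male control mice (1.31), and Pcyt1a was lower (-0.44). Of the 23 PPAR alpha targets, Pex11a was higher (0.51) and Vnn1 was lower (-1.26).

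The change of Abhd6 after TAI differed between the sexes, with a female minus male difference of -1.16 ± 0.16 on the log2 scale (SE, limma adjusted p = 0.00154). It was the single gene of the 10 to do so, and 0.501% of all genes had a higher and 0.833% a lower change in females than in males. Abhd6 is also the gene of the 10 whose summed level depends most on how the fragments were divided among transcripts of unequal length. The table holds 3 transcripts of Abhd6, of 1401, 1958 and 2226 bases, and FPKM divide by these lengths. The 1401 base transcript had 0.491, 0.0303 and 8.53 FPKM in female mice after TAI, against 28.6, 23.7 and 30.4 FPKM in female control mice. The 2226 base transcript had 21.9, 33.2 and 4.83 FPKM in female mice after TAI, against 5.15, 4.63 and 5.23 FPKM in female control mice. In 2 of the 3 female mice after TAI most of the level thus stood on another transcript than in the female control mice. High values of the 2226 base transcript also occurred in other groups. It had 16.3, 17.1 and 4.76 FPKM in mice fed HFD after TAI and 2.99, 16.3 and 4.81 FPKM in male control mice.

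With 1 fixed length for the gene in all libraries, an alternative chosen after the data were seen, Abhd6 averaged 34.7 ± 7.49 FPKM in female mice after TAI and 40.1 ± 3.57 FPKM in female control mice, and 41.8 ± 1.37 FPKM in male mice after TAI and 30.7 ± 3.72 FPKM in male control mice (SD, n = 3 each). The log2 fold changes were then -0.22 in females (limma adjusted p = 0.357) and 0.44 in males (limma adjusted p = 0.102), and their difference was -0.66 ± 0.18 (SE, limma adjusted p = 0.0999). The increase in mice fed HFD over mice after TAI stayed past the threshold, at a log2 fold change of 0.69 (limma adjusted p = 0.00683), and that over female control mice now passed, at 0.47 (limma adjusted p = 0.0469). So did that in mice given simvastatin after TAI over male control mice, at 0.56 (limma adjusted p = 0.0163). In Fabp1, Fabp2, Plin3, Cideb and Slc27a4 the table holds 1 transcript, and in Plin2, Slc27a2 and Pnpla2 the main transcript carried 96.4%, 99.8% and 98.3% of the FPKM.

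**Figure D5:**
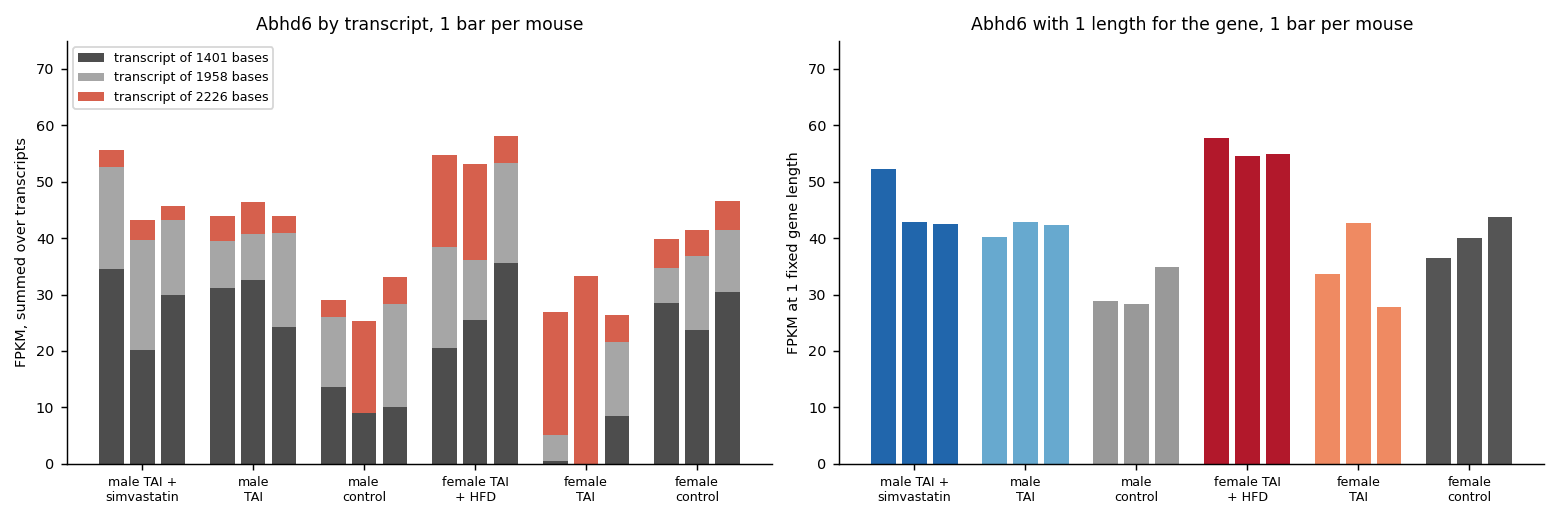
Abhd6 in each of the 18 mice, 1 bar per mouse, as FPKM stacked over its 3 transcripts (left) and as FPKM with 1 fixed length for the gene (right), both axes starting at 0. In the stacked bars the female mice after TAI reach 26.4 to 33.2 FPKM, with most of it on the 2226 base transcript in 2 of them, and with a fixed length their mean of 34.7 FPKM lies nearer to the 40.1 FPKM of female control mice.

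Among unirradiated mice, 2 of the 10 genes were higher in female than in male control mice and none was lower, beside 2.12% of all genes higher and 3.02% lower. This balance turned with the scaling, since quantile normalization gave 341 genes higher and 228 lower, and median ratio scaling 323 and 201, in place of 249 and 355. Fabp2 had 6071, 6160 and 5328 FPKM in female control mice, against 3540, 3122 and 3243 FPKM in male control mice, a ratio of the means of 1.77 and a log2 fold change of 0.82 ± 0.16 (SE, limma adjusted p = 0.00775), a call that was lost without the filter on low values (limma adjusted p = 0.0823). The female mice after TAI, at 3071 to 4340 FPKM, overlapped the male control mice in Fabp2. Fabp1 did not show this difference, with 2003 ± 185 FPKM in female control mice and 1833 ± 326 FPKM in male control mice (SD, n = 3 each). Abhd6 was higher by 0.54 ± 0.11 (SE, limma adjusted p = 0.012), which did not pass with 1 fixed gene length (0.38, limma adjusted p = 0.101) nor without male control replicate 2 or female control replicate 3 (limma adjusted p = 0.0638 and 0.0644). Plin2 had 29.2, 30.4 and 30.4 FPKM in female control mice, against 23.7, 23.7 and 24.4 FPKM in male control mice, without overlap, and its log2 fold change of 0.31 did not pass (limma adjusted p = 0.0941). Of all 11767 genes tested, 959 were higher and 2081 lower without overlap in female control mice.

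Over the deviations of the 18 libraries from their group means, the Pearson correlation of log2(FPKM + 1) had a median of 0.42 over the 45 pairs of genes, with a range of -0.48 to 0.92. It was over 0.7 in 5 pairs, Plin3 with Slc27a4 (0.918), Plin2 with Cideb (0.808), Cideb with Slc27a4 (0.777), Plin3 with Cideb (0.758) and Fabp1 with Slc27a2 (0.719). The libraries share their depth and scaling, so these values are a description. Slc27a4, Plin3 and Cideb were also the genes most related to the first principal component of all genes, at correlations of -0.639, -0.578 and -0.524 over the 18 libraries, and female TAI replicate 3, at its far end, was the lowest of the 3 female mice after TAI in all 3 genes.

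The genes whose pattern over the 18 libraries was most like that of Fabp1 were Ugt2b5, a glucuronosyltransferase (Pearson r = 0.975), Retsat, the retinol saturase (0.948), Ugdh (0.943), Aco1 (0.938) and Slc27a2 (0.923). Those most like Fabp2 were Aldh3a2, a fatty aldehyde dehydrogenase (0.919), Picalm (0.918), Slc5a4b (0.915), Acsl3 (0.911) and Hsd17b11 (0.905). Those most like Plin2 were Slc6a3 (0.947), which was low at 0.868 FPKM on average, Slc27a2 (0.938), Acot4 (0.933), Retsat (0.925) and Lamb3 (0.916). The mice fed HFD carry much of these correlations, as in Retsat, which averaged 71.6 FPKM in mice fed HFD after TAI, 21.03 FPKM in female mice after TAI and 25.1 FPKM in female control mice.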

How the data were processed

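The mRNA libraries of 18 mice, 3 in each of 6 groups named by the labels, were used. The authors deposited FPKM, 1 value for each of 55869 protein-coding transcripts and each library, and credit Cuffdiff 2.1.1, Bowtie2 2.2.8, StringTie 1.3.1 and HISAT2 in their processing notes. The role of each tool and the genome build are not given in the sources used here. FPKM were summed by gene symbol, and a symbol was tested if 3 or more libraries reached 1 FPKM, which kept 11767 and left out 10161. On log2(FPKM + 1), a scale that understates the change of genes of few FPKM, 1 limma model (limma 3.58.1, R 4.3.3) with a mean per group and an intensity trend was fitted to all 18 libraries, with 12 residual degrees of freedom and Benjamini-Hochberg adjustment over all genes tested. The model was run on simulated data with independent noise and, for each gene, the same spread in all groups. This does not test the model where groups differ in spread. The 10 genes and the lists were chosen with earlier results of these data known. The text names all 10 genes, up to 6 genes of a described list past the threshold with the smallest p (or up to 2 where none passed), and for Fabp1, Fabp2 and Plin2 the 5 genes most like them. Not every gene that meets this rule is reported here. Positions and lengths were read from GENCODE M21, promoters from RefSeq (GRCm38.p6), with Python 3.11.15. The relative depth of the libraries, estimated from the steps between low FPKM, ranged from 0.785 to 1.18 relative to female control replicate 1. The alternatives were other pseudocounts, filters, scalings and variance models, the compared groups alone, a replicate block, single transcripts, a fixed gene length and each library left out.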

Additional observations from a re-analysis of the deposited data

Results flagged for a closer look

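The change of Abhd6 after TAI differed between female and male mice by -1.16 on the log2 scale (SE 0.16, limma adjusted p = 0.00154). In summed FPKM, all 3 female mice after TAI were below all 3 female control mice. All 3 male mice after TAI were above all 3 male control mice. Of all 11767 genes tested, 487 were lower without overlap in females after TAI, and 1215 were higher without overlap in males. With 1 fixed gene length, chosen after the data were seen, the difference was -0.66 (limma adjusted p = 0.0999). The female groups then overlapped, at 27.8 to 42.7 FPKM after TAI and 36.5 to 43.7 FPKM in control mice. The male groups stayed apart.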

How the results depend on the processing

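The 14 calls of the 10 genes were recomputed under 31 alternatives, 434 values in all, of which 388 stayed past the threshold, 46 did not and none changed sign. Of 2038 values of results without a call, 5 passed. The count for male TAI against male control was 0 in place of 1 with median ratio scaling, the most abundant transcript alone or a fixed gene length, and that for simvastatin after TAI against male control was 0 with the most abundant transcript alone. The count for female TAI against female control was 0 in place of 1 without a filter, with quantile normalization, with median ratio scaling, without the trend, with the compared groups alone, with groups weighted by their own spread and with a fixed gene length, and 0 to 1 without single libraries. HFD after TAI against female TAI gave 1 in place of 5 with the compared groups alone, and 4 without a filter. HFD after TAI against female control gave 1 in place of 3 with median ratio scaling and 2 to 4 without single libraries. The female minus male difference in the TAI change gave 0 with a fixed gene length. Female against male control gave 1 in place of 2 without a filter, with the compared groups alone, with the most abundant transcript alone and with a fixed gene length, and 1 to 3 without single libraries. The cause of these changes was not tested. The fixed gene length was chosen after the data were seen.

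Whether the replicate numbers pair mice cannot be settled from these values. Deviations of mice of equal number had correlations of -0.459 to 0.391 (median 0.0277, 45 pairs), and 20 pairs were above 0.1. Those of other numbers had a median of -0.0249 (90 pairs), and 23 pairs were above 0.1. With the replicate number as a block, the count for female TAI against control was 0, and the block changed no other count of the 10 genes. Over all genes, the block gave 26 higher and 20 lower in female TAI against control, in place of 49 and 40. In HFD against female control it gave 472 and 212, in place of 343 and 197.

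Over all genes, 372 passed in HFD against TAI, 47 with the compared groups alone and 145 to 561 without single libraries. In female TAI against control 89 passed, none with the compared groups alone, and 5 to 1050 without single libraries, the lowest without replicate 3 of the mice fed HFD and the highest without female TAI replicate 1. In HFD against female control 540 passed, 2377 with groups weighted by their own spread, and 183 to 1716 without single libraries. With the compared groups alone, 1480 genes were higher and 445 lower in that comparison. Quantile normalization moved the median log2 fold change of all genes by -0.118 in HFD against female control, by -0.124 in female TAI against control and by 0.104 in simvastatin against TAI. It gave 327 higher and 542 lower genes in HFD against female control, in place of 343 and 197, and 17 and 34 in female TAI against control, in place of 49 and 40. Median ratio scaling gave 294 and 382, and 23 and 48, in the same order. Male TAI against control gave 122 higher and 139 lower genes after quantiles were matched, and 97 and 90 after median ratio scaling, in place of 141 and 106, and simvastatin against male control gave 459 and 268, and 363 and 178, in place of 323 and 309. The female minus male difference gave 31 and 83 with median ratio scaling, in place of 59 and 98. Female against male control called 239 genes without female control replicate 1 and 972 without female TAI replicate 3, in place of 604, and simvastatin against TAI called 11 without simvastatin replicate 3 and 136 without female TAI replicate 3, in place of 82. FPKM hold no read totals, so the depth behind a low gene such as Mgll is unknown.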
